A study of Mus musculus with 8 samples.

Results

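The resting state of cultured mouse alveolar macrophages was described from the 2 libraries that received the vehicle DMSO without Poly(I:C), out of 8 bulk RNA-seq libraries in the series. These 2 libraries, called replicate 1 and replicate 2, were chosen by their treatment label and by no measured value. Lavage of mouse airspaces gave the cells, which were kept if they adhered within 2 h and cultured in medium with 10% serum and GM-CSF at 10 ng/ml. The other 6 libraries, 2 in each group, came from cells cultured in the same way that received MSDC at 10 µM, Poly(I:C) at 5 µg/mL with vehicle, or Poly(I:C) with MSDC, where the compound was added 2 h before a stimulation of 24 h. The strain field of the labels repeats the treatment, and the sources used here give neither age nor sex, nor whether the 2 samples were separate cultures, animals or pools. The spread between the 2 libraries may therefore be technical, and each value is given for both of them in the order replicate 1, replicate 2.

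Alveolar macrophages are the resident phagocytes of the airspaces. They take up inhaled particles and surfactant, the lipid film that lines the alveoli, and break them down in lysosomes. Their development and upkeep depend on GM-CSF and TGF-beta, which act through the nuclear receptor PPAR gamma to set a programme rich in lipid handling genes. The questions here were which genes filled the transcriptome of the vehicle cells, which members of known families were on or off, whether RNA of other cell types was present, and how closely the 2 libraries agreed.

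Levels are given as TPM, transcripts per 1000000, a share of all transcripts corrected for gene length, so that genes can be compared with each other within a library. A gene was called expressed at 1 TPM or more in both libraries and silent at 3 counts or fewer in each, and genes between these limits were called low. Of 15521 genes in the table, 10325 (66.5%) were expressed and 3176 (20.5%) were silent, and these shares of all genes are the background for the counts of each family. Replicate 1 held 28762425 counts and replicate 2 held 29493223. At this depth 3 counts in a library, the most that a count of 0 allows for, came to 0.15 TPM for a gene such as Cd3e. Intervals and this limit cover counting error only.

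The transcriptome was led by a lysozyme, the subunits of the iron store and lysosomal proteins. Lyz2, the macrophage lysozyme gene (chr10:117277541-117282272 in GRCm38), had the highest mean, with 38299.5 TPM in replicate 1 and 38083.8 TPM in replicate 2. Ftl1, the ferritin light chain gene (chr7:45457944-45459886), followed with 37374 and 38393 TPM, and was above Lyz2 in replicate 2. Its partner Fth1, the heavy chain, was at 27972 and 29412 TPM. These 3 genes alone made up 10.4 and 10.6% of all transcripts in the 2 libraries. Next came the chemokine gene Ccl6 (chr11:83587886-83593087) with 21294 and 18019 TPM, the aspartic protease gene Ctsd with 13844 and 14392 TPM, and Psap, which encodes the precursor of the saposins that help to break down sphingolipids, with 13151 and 13109 TPM. Chil3, a chitinase-like protein gene typical of alveolar macrophages, stood at 8536 and 8579 TPM.

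The 10 most abundant genes held 18.3 and 18.2% of the transcripts, the 50 most abundant held 31.0 and 31.1%, and 234 and 222 genes were needed to reach 50%. Genes of the cytoskeleton and of housekeeping filled much of the remaining top 25, among them Actb (7741 and 7640 TPM), Tmsb4x (7459 and 7268 TPM), Gapdh (6894 and 7292 TPM) and Eef1a1 (6059 and 6285 TPM). Macrophage genes in the same range were Lgals3, a galectin (5224 and 6061 TPM), Cd68 (4952 and 5003 TPM), the elastase gene Mmp12 (5386 and 4549 TPM) and Fcer1g, the shared signalling chain of Fc receptors (4639 and 3947 TPM). The 82 ribosomal protein genes together took 7.65 and 8.51%. Tmsb10, which encodes an actin-binding thymosin (4364 and 5973 TPM), differed most between the libraries among these 25. Copies that resemble Lyz2, Ftl1, Fth1, Actb, Gapdh, Eef1a1 and the ribosomal genes exist in the genome, and part of the deposited counts were not whole, so reads may have been split between copies.

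**Figure D1:**
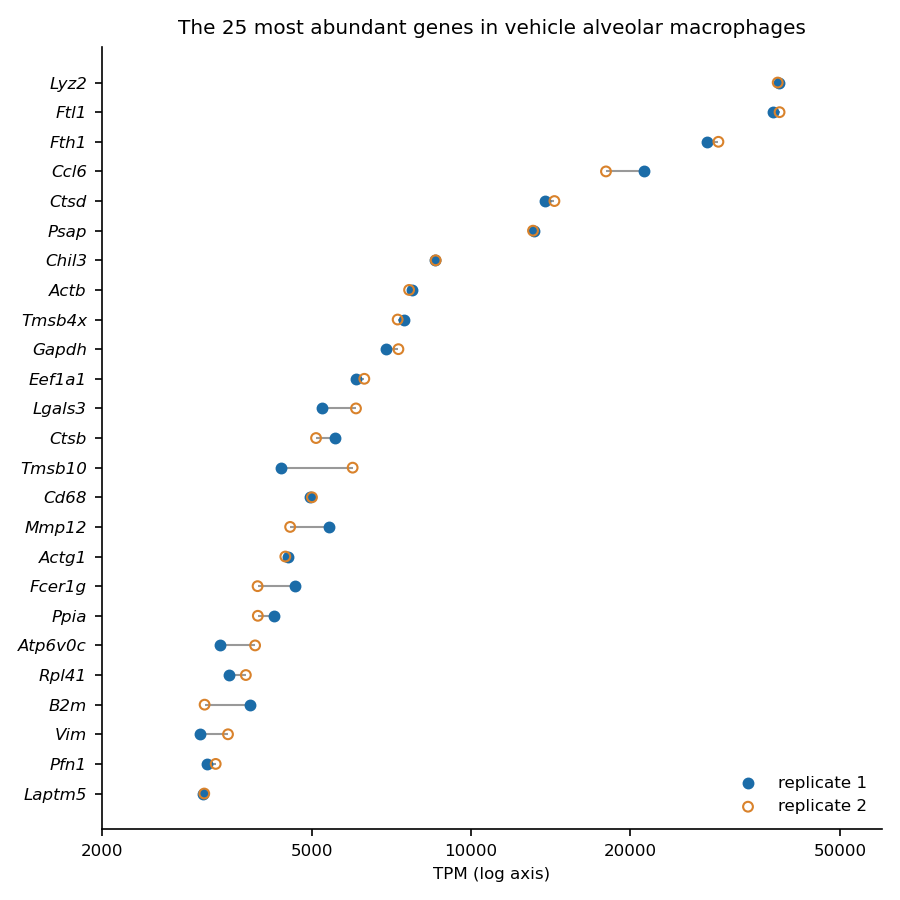
TPM (log axis) of the 25 genes with the highest mean, with a filled point for replicate 1 and an open point for replicate 2. The points of most genes nearly coincide, and the gap is widest for Tmsb10, at 4364 and 5973 TPM.

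Lysosomal genes were expressed broadly and at high levels. Of 13 listed cathepsin genes 11 were expressed, 9 of them above 100 TPM, and together they held 2.88 and 2.92% of all transcripts. Ctsd was followed by Ctsb (5531 and 5093 TPM), Ctss (3064 and 3051 TPM), which cuts the invariant chain, Ctsz (2214 and 2536 TPM) and Ctsk (1779 and 1776 TPM), a collagenase. Ctso (16.4 and 14.2 TPM) and Ctsf (9.93 and 10.7 TPM) were much lower, Ctse was low and Ctsw had no count. Most genes of the proton pump that acidifies the lysosome were expressed as well, with 19 of 21 listed genes of the V-ATPase expressed and 17 above 100 TPM. Its membrane ring subunit gene Atp6v0c stood at 3355 and 3905 TPM. Of the paired forms of subunit d, Atp6v0d2, known from osteoclasts and alveolar macrophages, was at 2142 and 1903 TPM and the widely used Atp6v0d1 at 622 and 632 TPM, so the tissue-restricted form was the more abundant. Atp6v1c2 had no count and Atp6v0e2 was low. All 4 genes of the MiT family, transcription factors that drive lysosomal genes, were expressed, led by Tfeb (123 and 141 TPM) and Tfec (126 and 123 TPM), with Mitf lowest at 21.1 and 19.0 TPM.

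MiT factors bind a palindrome known as the CLEAR element, so the promoters of the listed cathepsin and V-ATPase genes, silent ones included, were searched for it. The letters TCACGTGA, which read the same on both strands, were found in the 300 bases around the start site (250 before and 50 after) of 5 of 24 cathepsin and V-ATPase genes with a promoter in the RefSeq-based table of GRCm38.p6, namely Atp6v0d1, Atp6v0e, Atp6v1a, Ctsa and Ctsd, or 20.8%. The same letters occurred in 1.12% of the 27025 genes of that table and in 2.4% of the expressed genes. The searched genes were listed as lysosomal, so the 20.8% describes these lists and is no test. A gene was counted if any of its windows in that table held a match, and the first such window is the one shown. A match describes the sequence and does not show binding. The windows of the cathepsin genes with a match, both on the strand of the gene with the element in capitals, are shown because they belong to the most abundant protease gene and to Ctsa, the protective protein of lysosomal glycosidases (871 and 883 TPM). The window of Ctsd is chr7:142387778-142388077 on the minus strand, with 1 element that begins 99 bases before the start site. That of Ctsa is chr2:164833523-164833822 on the plus strand, with 2 elements. The upstream one begins 13 bases before the start site of this window. The annotated gene begins at chr2:164832872, upstream of the window, so that start site lies inside the gene.
Ctsd: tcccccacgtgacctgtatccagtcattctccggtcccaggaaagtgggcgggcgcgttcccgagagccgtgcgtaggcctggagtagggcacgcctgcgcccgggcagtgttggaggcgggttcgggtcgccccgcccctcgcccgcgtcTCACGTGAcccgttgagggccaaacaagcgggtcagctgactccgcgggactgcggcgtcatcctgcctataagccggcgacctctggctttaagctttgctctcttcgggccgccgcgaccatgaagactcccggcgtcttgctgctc
Ctsa: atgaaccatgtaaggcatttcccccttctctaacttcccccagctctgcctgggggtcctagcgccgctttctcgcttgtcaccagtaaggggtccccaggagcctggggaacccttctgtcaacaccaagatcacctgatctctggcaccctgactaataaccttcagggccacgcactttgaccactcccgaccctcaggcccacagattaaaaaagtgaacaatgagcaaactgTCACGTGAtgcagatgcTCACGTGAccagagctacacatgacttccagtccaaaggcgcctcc

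Among iron genes those for storage were by far the most abundant. Beside the ferritins, Hmox1, which frees iron from haem, was at 374 and 369 TPM and the transferrin gene Trf at 336 and 331 TPM. The exporter gene Slc40a1 (2.06 and 1.56 TPM) and the uptake receptor gene Tfrc (13.7 and 10.4 TPM) were far lower. The haemoglobin scavenger receptor gene Cd163 and the receptor gene Tfr2 had no count, and Cp and Lcn2 were silent.

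Genes that handle surfactant lipids were expressed almost throughout, 24 of 26. Among the fatty acid binding proteins, Fabp5 (2436 and 2591 TPM) and Fabp4 (778 and 855 TPM) were abundant, Fabp1 stood at 20.97 and 38.8 TPM, Fabp3 and Fabp7 were low and Fabp12 was silent. Lpl, which frees fatty acids from triglycerides, was at 1432 and 1235 TPM and the lysosomal acid lipase gene Lipa at 1080 and 953 TPM. The droplet coat gene Plin2 (666 and 717 TPM), the receptor gene Cd36 (498 and 439 TPM) and Npc2, which moves cholesterol out of lysosomes (345 and 350 TPM), were all well above the median of expressed genes, 22.8 and 21.99 TPM. Of the cholesterol exporters, Abcg1 (492 and 451 TPM) was far above Abca1 (24.98 and 15.98 TPM). Of the apolipoprotein genes Apoe was expressed, at 8.15 and 9.19 TPM, Apoc1 was low at 0.94 and 0.53 TPM, Apoa1 was silent and Apoc4 had no count. Nuclear receptors that regulate lipid genes were expressed in part. Pparg (189 and 197 TPM), its partner Rxra (160 and 158 TPM), the LXR genes Nr1h2 (82.9 and 88.8 TPM) and Nr1h3 (77.1 and 78.4 TPM) and Ppard (73.8 and 77.1 TPM) were expressed, whereas Ppara and Rxrg were silent and Rarb was low.

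A list of 35 genes known from alveolar macrophages was set beside the labelled cell type. It was chosen with earlier results of these data known, so it gives no independent check. All 35 were expressed, against 66.5% of all genes. Their median was 286.8 TPM, against 8.56 TPM over all genes, silent ones included. After Chil3 the highest were Cd9 (2619 and 2354 TPM), Spp1 (2477 and 2636 TPM), Plet1 (2505 and 2502 TPM) and Fabp5. Among the genes used to define these cells, the integrin gene Itgax, which encodes CD11c, was at 1208 and 1098 TPM, the ribonuclease gene Ear2 at 977 and 980 TPM, the carbonic anhydrase gene Car4 at 934 and 1005 TPM, the scavenger receptor gene Marco at 324 and 399 TPM and Siglecf at 261 and 249.8 TPM. The members nearest the limit were Krt79 (5.71 and 6.74 TPM) and Kcnip4 (2.60 and 2.46 TPM). All 35 were at 1 TPM or more in the other 6 libraries too. Of 22 genes shared by macrophages in general 21 were expressed. The exception was Aif1, which encodes IBA1, a marker of many other tissue macrophages, with 0.25 and 0.08 TPM. Spi1, which encodes the master factor PU.1, stood at 917 and 944 TPM, the integrin gene Itgam, which encodes CD11b, at 39.5 and 35.9 TPM, and Cd14, the co-receptor of endotoxin, at 20.2 and 20.1 TPM.

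Of the genes through which the culture factor acts, the receptor chains Csf2rb (607 and 554 TPM), Csf2ra (452 and 509 TPM) and Csf2rb2 (147 and 136 TPM) were expressed, as were the kinase gene Jak2 (15.6 TPM in both), Stat5a (44.5 and 47.8 TPM) and Stat5b (35.1 and 35.8 TPM). Feedback genes of this pathway were Pim1 (108 and 102 TPM), Cish (59.5 and 55.6 TPM), Socs3 (42.2 and 39.6 TPM), Socs2 (33.4 and 31.4 TPM) and Socs1 (12.2 and 11.9 TPM). The receptor gene Csf1r for the alternative growth factor M-CSF was at 239 and 211 TPM, and of its ligands Csf1 was at 3.79 and 3.71 TPM and Il34 was silent. The ligand genes Csf2 and Csf3 had no count. TGF-beta signalling was represented by Tgfb1 (593 and 620 TPM), Tgfbr2 (413 and 374 TPM) and Tgfbr1 (89.5 and 72.3 TPM). All 22 cell cycle genes listed were expressed and 11 exceeded 100 TPM. Pcna, the replication clamp gene, was at 560 and 563 TPM, Ube2c at 240.01 and 244 TPM, Mki67 at 124 and 110.3 TPM and Top2a at 99.9 and 96.0 TPM, while among the D cyclins Ccnd3 (215 and 203 TPM) was far above Ccnd1 (2.13 and 1.54 TPM).

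Members of the families of lineage factors stood at different levels. In the C/EBP family Cebpb (928 and 1109 TPM) and Cebpa (197 and 215 TPM) led and Cebpe was low. The large MAF factor gene Maf, known from other macrophages, was low at 0.67 and 0.33 TPM, whereas the small partners Maff, Mafg and Mafk ranged from 28.83 to 58.9 TPM. Spic, a factor of red pulp macrophages, and Spib were silent, and of 3 listed GATA genes none was expressed, with Gata6, the factor of peritoneal macrophages, silent. Irf5 (138 and 124 TPM) was the highest IRF gene. Stat6 (128 and 136 TPM) was the highest STAT gene and Stat4 was silent.

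**Figure D2:**
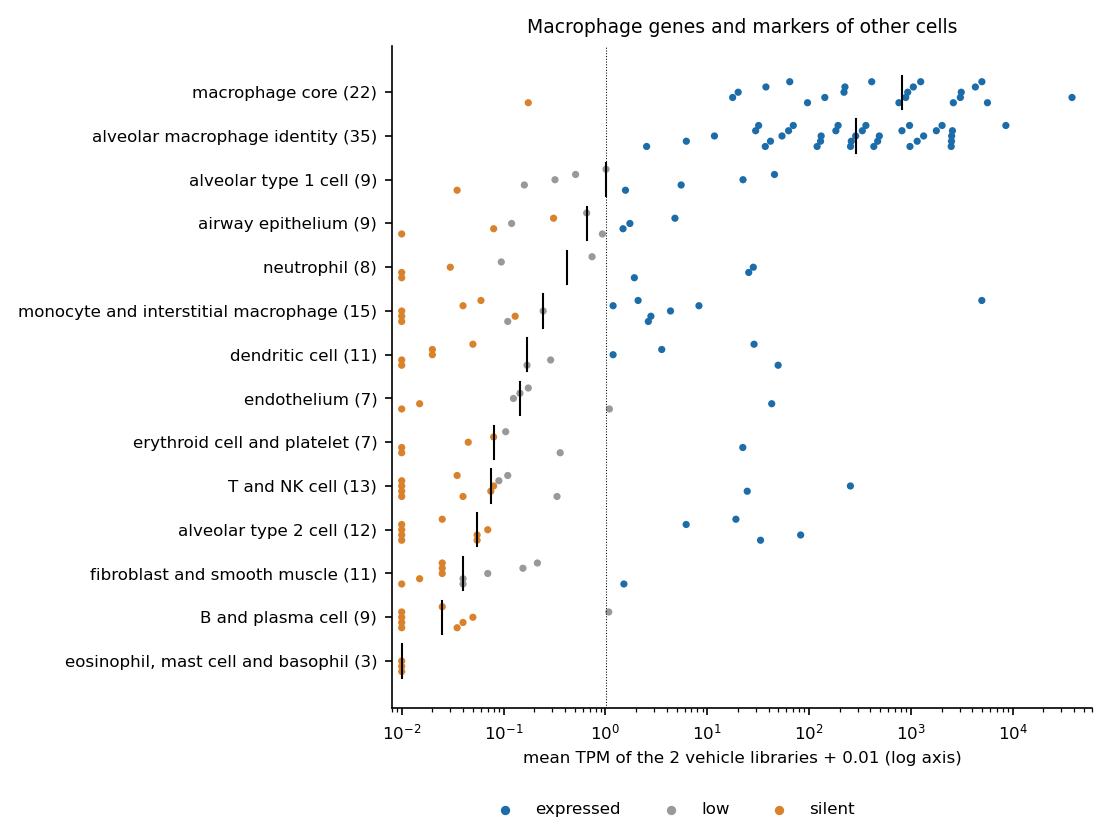
Mean TPM plus 0.01 (log axis) of each listed gene of 2 macrophage lists and of markers of 12 other kinds of cells, coloured as expressed, low or silent, with a black bar at the median of each list and the number of listed genes in parentheses. The macrophage lists have medians of 826.3 and 286.8 TPM, and in each list of other cells fewer than 50% of the listed genes are coloured as expressed.

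Markers of other cells, also chosen with earlier results known, were set beside the labelled cell type as well. Of 155 such genes 114 were in the table, and 30 of these (26.3%, against 66.5% of all genes) were expressed while 56 (49.1%, against 20.5%) were silent. Their summed level was 0.614 and 0.528% of all transcripts, and 0.0753 and 0.0731% without Mmp12, which alveolar macrophages themselves express. In bulk RNA, fewer cells of a type and less RNA per cell cannot be told apart, so these sums give no share of cells. Genes missing from the table, such as Ly6g, Prg2 and Krt5, were not analysed here.

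The lists of epithelium and stroma held members at 0 beside members that were expressed. The surfactant protein genes Sftpa1 and Sftpd had no count in either library, Sftpc had 1 count in total and Sftpb had 2. The expressed members of the type 2 cell list were Napsa (84.2 and 81.2 TPM), Abca3 (36.1 and 30.7 TPM), Lpcat1 (19.9 and 18.4 TPM) and Etv5 (6.46 and 5.94 TPM), with none of the 8 others above 3 counts in a library. The airway secretory gene Scgb1a1 was just above the limit at 1.36 and 1.60 TPM, and Bpifa1 was at 1.75 and 1.71 TPM. In the type 1 cell list Cav1 (50.1 and 41.4 TPM), which many cell types express, Pdpn (21.7 and 23.2 TPM) and Hopx (7.17 and 3.90 TPM) were the highest. Of the fibroblast and smooth muscle list Acta2 alone was expressed, at 1.66 and 1.36 TPM, and Col1a1, Col1a2 and Col3a1 were at 0.06 TPM or less. In the endothelial list Vwf, the von Willebrand factor gene, stood apart at 43.5 and 42.5 TPM, while Cdh5 was at 1.33 and 0.84 TPM, Pecam1 at 0.11 and 0.16 TPM, Kdr had 1 count in total and Tie1 had none. Vwf made up 96.6% of that list's sum.

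The lists of lymphocytes and granulocytes differed from each other. Of 13 T and NK cell genes 2 were expressed and 4 had no count, and of 8 neutrophil genes 3 were expressed and 2 had no count. None of 9 B cell genes was expressed, and 4 of them had no count. Over all 15521 genes, 66.5% were expressed and 1744 had no count in either library. The T cell genes Cd3e and Cd3g had no count and Cd3d had 1, yet Cd2, an adhesion receptor gene of T cells, was at 251 and 258 TPM and the receptor gene Il7r at 26.2 and 23.3 TPM. Ms4a1 and Pax5 of B cells had no count, and the highest B cell marker was Fcrla at 1.31 and 0.83 TPM. The neutrophil markers Camp and Ngp had no count, against 24.9 and 31.8 TPM for S100a8 and 27.7 and 23.4 TPM for the collagenase gene Mmp8. None of 3 listed eosinophil, mast cell and basophil markers (Ccr3, Gata2 and Il5ra) had a count. Of dendritic cell genes Irf8 (49.5 and 49.9 TPM) and Batf3 (29.4 and 28.2 TPM) were expressed, with Zbtb46 near the limit at 1.28 and 1.08 TPM and Flt3 at 1 count in total. The haemoglobin gene Hba-a2 had no count and Hba-a1 had 1, and Pf4 (22.9 and 21.8 TPM) made up 97.6% of the erythroid and platelet list. Of the genes of monocytes and interstitial macrophages, Ly6c2, Cd163 and Folr2 had no count and Cx3cr1 had 2 and 3. The complement genes C1qa (2.52 and 2.74 TPM), C1qb (5.20 and 3.50 TPM) and C1qc (2.93 and 2.65 TPM) were expressed at 5.20 TPM or less. So was the receptor gene Ccr2 (2.16 and 2.01 TPM). In several of these lists 1 member thus carried most of the sum.

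Receptor families differed in how many members were expressed. Of 12 Toll-like receptor genes 7 were expressed, with Tlr2, for bacterial lipopeptides (216 and 179 TPM), and the RNA-sensing Tlr7 (126 and 103 TPM), Tlr8 (93.2 and 73.3 TPM) and Tlr13 (85.7 and 72.9 TPM) above Tlr4, for endotoxin (37.6 and 30.3 TPM). Tlr3, which reads double-stranded RNA, was the lowest of the 7 expressed, at 5.26 and 4.02 TPM. Tlr1, Tlr5, Tlr9 and Tlr11 were below 1 TPM, and Tlr12 had no count. Of 19 listed C-type lectin receptor genes 14 were expressed, led by Clec7a, which encodes the fungal glucan receptor Dectin-1 (2400.3 and 2196 TPM), and Clec4n, for Dectin-2 (724 and 646 TPM). Clec10a, known from other macrophages, was at 2.50 and 2.24 TPM, and Klrd1 and Klrk1 had no count. Of 16 scavenger receptor genes 11 were expressed, with Mrc1, the mannose receptor (481 and 384 TPM), Olr1 (283 and 237 TPM) and Msr1 (85.2 and 76.0 TPM) beside Cd36 and Marco, while Stab2, Mrc2 and Cd163 were silent.

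Among Fc receptors the activating Fcgr3 (915 and 864 TPM) exceeded the inhibitory Fcgr2b (173 and 185 TPM), Fcgr4 (48.0 and 41.0 TPM) and the high-affinity Fcgr1 (18.5 and 17.0 TPM), and Pigr and Fcer2a were silent. Siglec genes, whose products bind sialic acid, were led by Siglecf and Cd33 (241 and 199 TPM), followed by Siglec1 (154 and 108 TPM) and Cd22 (92.9 and 94.6 TPM), an inhibitory receptor gene best known from B cells. Of 25 listed integrin genes 11 were expressed. The leukocyte beta chain Itgb2 (1719 and 1724 TPM) and Itgax led, Itgal was at 186 and 162 TPM, and Itgae, Itga11 and Itgb8 had no count. Of 19 listed chemokine receptor genes 6 were expressed and 10 were silent. Cxcr1 (127 and 107 TPM) was the highest, although its neighbour gene Cxcr2, with which it shares ligands, was low at 0.73 TPM in both libraries. Cxcr4 (92.8 and 79.5 TPM) and Ccr1 (87.5 and 72.6 TPM) came next.

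In the chemokine and metalloproteinase families 1 member held most of the transcripts. Of 32 chemokine genes 15 were expressed and 11 silent, and Ccl6 alone held 84.1% of the family's sum. Ccl17, which attracts T helper cells (2000.2 and 2179 TPM), Ccl3 (1005 and 840.3 TPM) and Ccl9 (567 and 499 TPM) followed, Ccl2 was at 44.8 and 36.9 TPM, and Cxcl13, Ccl8 and Ccl24 had no count. Of 26 cytokine genes 13 were expressed. Tgfb1 and Mif (556 and 521 TPM) were the highest, and within the IL-1 family Il18 (181 and 185 TPM), the antagonist gene Il1rn (130 and 104 TPM) and Il1a (99.3 and 89.7 TPM) stood above Il1b (6.82 and 5.88 TPM). Tnf was at 19.6 and 17.8 TPM, and Ifnb1, Il5, Il23a, Csf2 and Csf3 had no count. Among 21 matrix metalloproteinase and inhibitor genes Mmp12 held 97.1% of the sum, Mmp19 was at 59.8 and 52.9 TPM, Timp2 at 45.3 and 40.3 TPM, and Mmp9 and Mmp3 were silent. Of complement genes Cfp, which encodes properdin (307 and 319 TPM), C3 (185 and 197 TPM) and Cfb (178 and 180 TPM), all of the alternative pathway, were the highest, and the receptor genes C3ar1 (9.72 and 6.74 TPM) and C5ar1 (1.80 and 1.83 TPM) were lower. C4b and C1s1 were silent. S100a11 (3236 and 2694 TPM) and S100a1 (1613 and 1606 TPM) led the S100 genes, of which 7 of 14 were silent. Ear2 exceeded its close relatives Ear6 (162 and 166 TPM) and Ear1 (119 and 120 TPM), whose reads may be hard to assign, and Ear10 had no count.

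Of 11 listed genes of MHC class II antigen presentation 8 were expressed (72.7%). The invariant chain gene Cd74 (937 and 916 TPM) and the peptide loading gene H2-DMa (258 and 234 TPM) exceeded the class II chains H2-Aa (137 and 124 TPM) and H2-Ab1 (107 and 104 TPM). The class II transactivator gene Ciita was near the limit, at 1.82 and 1.45 TPM, H2-Eb2 had no count and H2-Ob was silent. Of 9 glucose transporter genes 4 were expressed, led by Slc2a1 (87.5 and 87.3 TPM) and Slc2a6 (35.6 and 33.5 TPM), while the neuronal and leukocyte form Slc2a3 was low (0.46 and 0.44 TPM) and Slc2a2 had no count. Hk3 (51.9 and 52.2 TPM) was the highest hexokinase gene, ahead of Hk2 (25.6 and 22.03 TPM) and Hk1 (16.5 TPM in both), and Hkdc1 was silent.

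**Figure D3:**
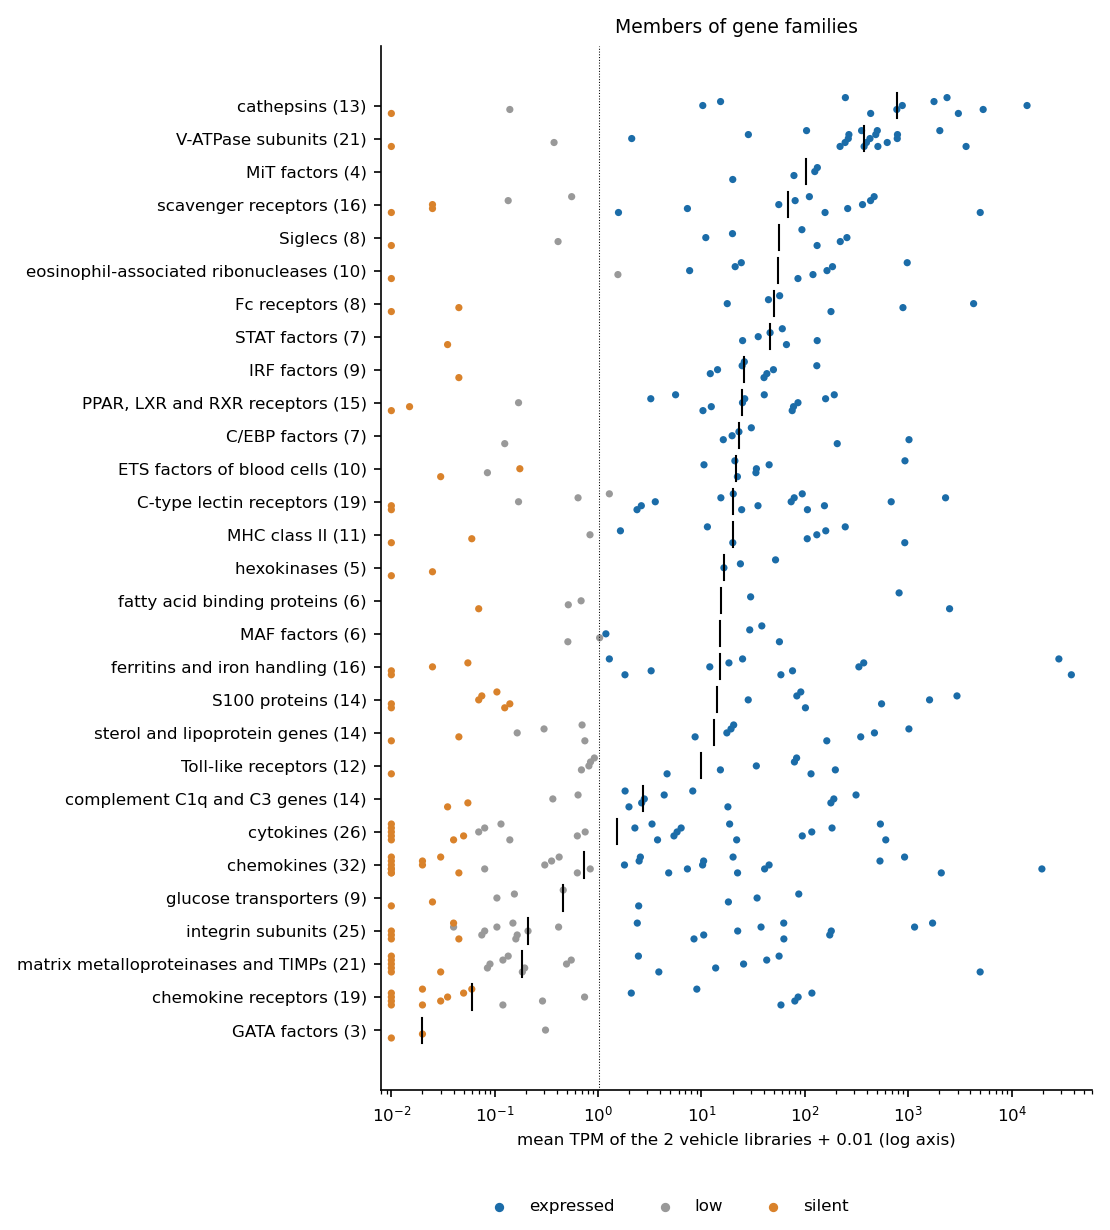
Mean TPM plus 0.01 (log axis) of the listed members of 29 gene families, coloured as expressed, low or silent, with a black bar at each median and the number of listed genes in parentheses. Medians run from 776.3 TPM for the cathepsins to 0.05 TPM for the chemokine receptors and 0.01 TPM for the GATA factors, and most families hold both expressed and silent members.

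Over all families 378 genes were listed, of which 235 (62.2%) were expressed, 63 low and 80 (21.2%) silent, close to the shares of all genes. In a list of 20 immediate early and heat shock genes, which respond to handling and stress, 14 were expressed and 6 were low. Hsp90aa1 (189 and 199 TPM), Atf3 (127 and 126 TPM) and Jund (108 and 111 TPM) were the highest, Fos was at 12.6 TPM in both libraries, and the inducible heat shock genes Hspa1a (0.39 and 1.13 TPM) and Hspa1b (0.78 and 0.37 TPM) were low.

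The 2 libraries agreed closely over most of the range. Across 15521 genes the correlation of log2(TPM + 1) was 0.9978 (Pearson) and 0.9898 (Spearman), beside Pearson values of 0.9977 to 0.9984 for the replicate pairs of the other 3 groups. Genes of 1 library share its depth and are not independent replicates, so no p was computed. Among 10423 genes with a mean of at least 1 TPM, the median absolute log2 ratio between the libraries was 0.12, against 0.09 to 0.10 in the other pairs. In total 43 (0.413%) differed at least 2-fold, 25 of them higher in replicate 1 (0.24%) and 18 higher in replicate 2 (0.173%), and 237 (2.27%) differed at least 1.5-fold. Libraries that differ by counting error alone would give a chi-square per degree of freedom near 1. The value was 14.7 over 11756 genes in this pair and 4.26 to 6.30 in the others. It was 14.6 without the interferon-stimulated genes described next. Of the 35 identity genes 1 differed at least 1.5-fold between the libraries, Fabp1, which was higher in replicate 2 by a ratio of 1.85 (95% counting interval 1.498 to 2.31). No gene of the cell cycle or cathepsin lists did so. Among genes with a mean of at least 5 TPM, Fabp1 had the largest ratio of replicate 2 to replicate 1, followed by Dnajc17, a co-chaperone gene, at 6.87 and 12.3 TPM.

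**Figure D4:**
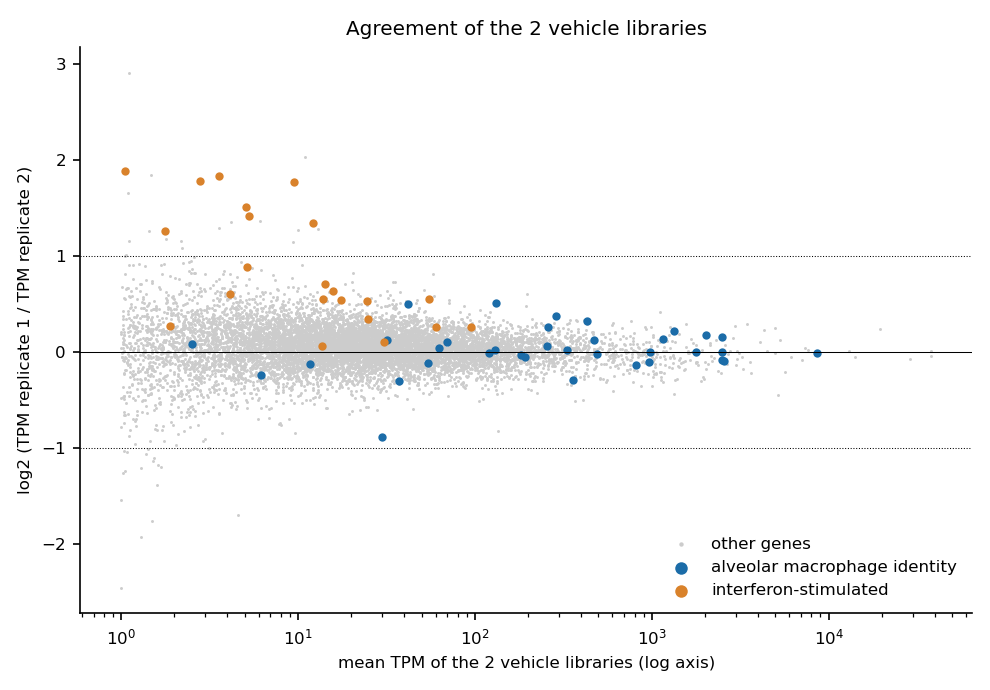
Log2 ratio of TPM in replicate 1 to replicate 2 against mean TPM (log axis) for genes of at least 1 TPM on average and above 0 in both libraries, with identity genes in blue, interferon-stimulated genes in orange and dotted lines at 2-fold. Identity genes scatter around 0, whereas the 22 interferon-stimulated genes lie above 0.

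Interferon-stimulated genes differed between the libraries in 1 direction. They encode antiviral proteins and sensors that cells make in response to interferons. All 22 listed members with a mean of at least 1 TPM were higher in replicate 1, where 59.6% of all such genes were, with a median log2 ratio of 0.62 against 0.04 over all genes. Of these 22, 12 exceeded 1.5-fold (1.44% of all genes did so in this direction) and 8 exceeded 2-fold. The list also leaned to 1 side in the other replicate pairs, with smaller medians: 13 of 18 members higher in replicate 2 with MSDC (median -0.22, 4 past 2-fold), 28 of 31 with Poly(I:C) and vehicle (median -0.10) and 23 of 30 with Poly(I:C) and MSDC (median -0.05). Over all genes the medians of these pairs were 0.03, -0.007 and -0.02. With MSDC, 26 of 10336 genes were past 2-fold toward replicate 2. The share of all genes higher in 1 replicate was computed for the vehicle pair alone. Toll-like receptors (7 of 7, median 0.29) and chemokine receptors (6 of 6, median 0.23) were higher in replicate 1 of the vehicle pair, with none past 1.5-fold. Most C-type lectin receptor genes (13 of 15), MHC class II genes (7 of 8) and V-ATPase genes (15 of 19) were higher there as well. By contrast, 7 of 11 cathepsin genes and 7 of 9 eosinophil-associated ribonuclease genes were higher in replicate 2. The ratios of these families were not adjusted for transcript length. The Toll-like and chemokine receptor families leaned to replicate 1 in the MSDC pair as well (8 of 8, median 0.15, and 5 of 5, median 0.14). In both Poly(I:C) pairs most of their members were higher in replicate 2. The list of interferon-stimulated genes was chosen with a difference between these libraries already known, and 2 libraries give no test of a condition, so these values are a description. Rtp4, an interferon-induced receptor transporter gene, was at 14.7 and 4.32 TPM, a ratio of 3.41 (95% counting interval 2.73 to 4.30). Slfn5 was at 7.50 and 2.63 TPM, a ratio of 2.85 (2.45 to 3.32). Irf7, a transcription factor of the interferon response, was at 17.5 and 6.87 TPM, a ratio of 2.54 (2.16 to 3.06). Isg15, a ubiquitin-like modifier gene, was at 6.66 and 3.60 TPM, a ratio of 1.85 (1.23 to 2.82).

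Other members had smaller ratios. Oas1a was at 65.3 and 44.5 TPM (ratio 1.47), Bst2, which tethers viruses to the cell, at 104 and 87.2 TPM (ratio 1.20), and Zbp1 at 32.0 and 29.7 TPM (ratio 1.08). Outside the list, the interferon-inducible Rnf213 (14.2 and 5.92 TPM, ratio 2.40) and Ifitm3 (8.74 and 3.40 TPM, ratio 2.57) and the endotoxin co-receptor gene Ly96 (18.5 and 7.61 TPM, ratio 2.43) were also among the 8 largest ratios at a mean of at least 5 TPM. The largest of these, for Tmem254c (17.6 and 4.29 TPM), belongs to a gene with near-identical copies and is uncertain. Xaf1 was at 7.71 and 2.89 TPM, a TPM ratio of 2.67, but its counts gave a ratio of 1.95 (1.48 to 2.57), since the deposited TPM of this gene were not proportional to its counts. Even in replicate 1 the level was low beside that of stimulated cells, since Irf7 was at 998.5 and 999.3 TPM in the libraries given Poly(I:C) with vehicle, a difference not tested here. Markers of other cells summed to 0.0753 and 0.0731% without Mmp12 in the 2 libraries, and their part in the difference was not tested.

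The promoters of this list were searched for the interferon-stimulated response element, written as GAAA, any 2 bases and GAAA again, on either strand. Overlapping matches were counted, and genes were counted as for the CLEAR element. The element was found in 13 of 23 members with a promoter in the table (56.5%). It was found in 3.99% of all 27025 genes and 3.89% of expressed genes. The list was chosen as interferon-stimulated, so this share describes the list and is no test. A match does not show binding. The windows of Isg15 and Slfn5 are shown with the matched letters in capitals. They were picked because both have the element and both differed between the libraries, and a link between the 2 was not tested. That of Isg15 is chr4:156200769-156201068 on the minus strand, where 3 overlapping matches begin 78 bases before the start site. That of Slfn5 is chr11:82951852-82952151 on the plus strand, where 1 match begins 155 bases before the start site of this window. The annotated gene begins at chr11:82951349, upstream of the window, so that start site lies inside the gene. Irf7 and Xaf1 were not among the 13 members with a match.
Isg15: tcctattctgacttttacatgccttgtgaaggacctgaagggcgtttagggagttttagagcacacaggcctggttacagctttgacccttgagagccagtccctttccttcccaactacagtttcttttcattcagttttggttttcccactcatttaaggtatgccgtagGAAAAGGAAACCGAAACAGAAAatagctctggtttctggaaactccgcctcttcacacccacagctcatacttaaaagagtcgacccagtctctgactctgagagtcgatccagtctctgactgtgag
Slfn5: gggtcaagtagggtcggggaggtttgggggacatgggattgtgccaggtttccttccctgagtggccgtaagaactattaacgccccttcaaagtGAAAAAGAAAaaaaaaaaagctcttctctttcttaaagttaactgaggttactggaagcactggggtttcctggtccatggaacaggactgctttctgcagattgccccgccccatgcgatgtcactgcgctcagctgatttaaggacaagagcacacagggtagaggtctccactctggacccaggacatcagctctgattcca

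The second pattern between the libraries followed transcript length. Genes were placed by their longest transcript in GENCODE M21, known for 98.9% of the genes compared. The median log2 ratio of replicate 1 to replicate 2 was -0.06 for 423 genes with transcripts under 1 kb, 0.00 for 2211 genes of 2 to 3 kb, 0.08 for 2442 genes of 4 to 6 kb, 0.16 for 888 genes of 6 to 8 kb and 0.26 for 534 genes of 8 kb and over. In that last class 89.3% of genes were higher in replicate 1, and in the shortest class 35.7%. Across genes the ratio correlated with length with a Spearman value of 0.353 in the vehicle pair, 0.265 in the MSDC pair, -0.0654 with Poly(I:C) and vehicle and -0.0327 with Poly(I:C) and MSDC, as a description of libraries whose genes share depth and preparation. Of genes at least 1.5-fold higher in replicate 1, 31.9% had a transcript of 6 kb or more, against 3.9% of those higher in replicate 2 and 13.8% of all. The interferon-stimulated genes were of various lengths, from 756 bases for Isg15 and 1859 for Rtp4 to 5979 for Slfn5 and 7417 for Parp14. After subtraction of the median of genes of like length, 21 of the 22 were still higher in replicate 1, with a median of 0.58. The labels state an RNA integrity number over 7 for the samples and give no value for each, so the part of RNA quality was not tested.

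**Figure D5:**
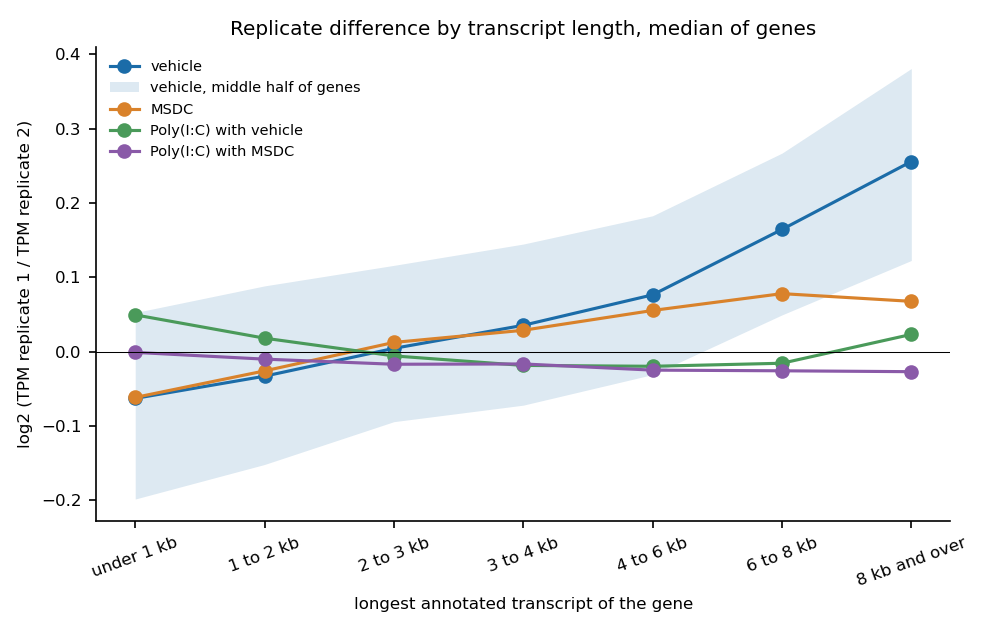
Median log2 ratio of TPM in replicate 1 to replicate 2 by length class of the longest annotated transcript, with a line for each replicate pair and a band for the middle 50% of genes in the vehicle pair. The vehicle line rises from -0.06 to 0.26, the MSDC line lies between -0.06 and 0.08, and the other 2 stay between -0.03 and 0.05.

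Most of the 50 most abundant genes were among the 50 highest in the other libraries as well. Of these genes of the vehicle cells, 43 were among the 50 highest in each MSDC library, 43 and 44 in the libraries given Poly(I:C) with vehicle, and 42 and 41 in those given Poly(I:C) with MSDC. The vehicle libraries themselves held 49 and 48 of them. The gene that ranked lowest elsewhere was Ccl17, at rank 534 and 474 with MSDC and 345 and 419 with Poly(I:C) and MSDC. In the libraries given Poly(I:C) with vehicle no gene of the 50 fell below rank 75. These are ranks in single libraries, and no difference between groups was tested here.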

How the data were processed

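RNA of 8 samples was measured by bulk RNA-seq, and 1 table deposited by the authors holds 15521 genes with expected counts, FPKM and TPM for each sample. The TPM columns, named so per the file headers, hold values the authors corrected for gene length, and they sum to 1000000 in each sample. The FPKM, also scaled by the authors per the file headers, served in 1 alternative. The deposited expected counts, whose columns are labelled as reads per the file headers, were partly not whole (5.95 to 7.19% of values in a library) and were rounded for the chi-square and the counting intervals. Cuffdiff, Bowtie2 2.3.4, TopHat2 2.1.1 and the build GRCm38 (mm10) appear in the submitters' processing notes, and the step each tool served is not given here. TPM ratios departed from count ratios by over 10% in 155 of 9577 genes (1.62%) with at least 100 counts in each vehicle library, and in none of the 25 most abundant.

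Group membership came from the treatment label. Of the gene identifiers, 15419 (99.3%) were found in RefSeq for GRCm38.p6, and 23 symbols turned into dates were repaired from them. The table holds 0 mitochondrially encoded genes, and 1744 genes had no count in either vehicle library. Gene lists, members and rules were chosen with earlier results of these data known. The text names the 25 most abundant genes, the highest, silent and near-limit members of each list, and the 8 largest ratios between the libraries in each direction at a mean of at least 5 TPM, of which part is printed. The chi-square used genes with at least 10 counts over a pair. Intervals are exact (Clopper-Pearson, 95%). Sequences are from RefSeq windows of 300 bases. Ratios and the chi-square were tested on simulated data. Tools were Python 3.11.15, pandas 2.3.3, scipy 1.17.1 and matplotlib 3.10.9. Some members of the lists are not reported here.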

Additional observations from a re-analysis of the deposited data

How the results depend on the processing

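The summary values named here and the chi-square were recomputed under 39 alternatives in all, a few for each, of which 32 left the value within its spread or within 1.5 times the count. The share of the 50 most abundant genes, 31.0% on average, was 22.2% of the counts when gene length was not corrected for and 33.2% without ribosomal protein genes. Ranked by counts, 17 of the 25 most abundant genes remained among the 25. The correlation of the libraries was 0.9948 with a pseudocount of 0.1 and 0.9956 over genes of at least 1 TPM. The 43 genes past 2-fold became 9 at a mean of at least 5 TPM, 24 with no filter and a pseudocount of 1, and 237 at 1.5-fold. The choices on transcript length and on counts in place of TPM were added after seeing the data. Counts in place of TPM gave 42 genes past 2-fold and a median of 0.55 for the interferon-stimulated genes. With 1 library left out, the number of expressed genes ranged from 10422 to 10430, the share of the top 50 from 31.0 to 31.1%, the expressed markers of other cells from 31 to 33 and the silent family members from 88 to 96. Agreement has no value with 1 library. No paired analysis was possible because no comparison between groups was tested. A count of 0 limits a gene to about 3 counts in a library, and silent genes with counts may lie higher.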
